A study of Homo sapiens with 8 samples.

Results

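The protein-coding genes of the cytosolic ribosome were examined as a group in RNAseq data of HEK293T cells treated with DZNep. The members were all genes of the deposited table of normalized counts whose symbol is RPL or RPS with a number, with or without the endings A, X, L, L1 or Y1, together with RPSA, RPLP0, RPLP1 and RPLP2. Pseudogenes were left out. The rule gave 84 of the 19118 genes in that table, 51 of the large subunit and 33 of the small subunit. A gene was in the table when its counts over the 8 libraries summed to more than 80. RPL10L also matches the rule, but it had 51 counts over the 8 libraries and was not in the table. All 84 members passed the filter on low counts that preceded the tests. Of them, 7 are paralogs of another ribosomal protein gene (RPL3L, RPL7L1, RPL22L1, RPL26L1, RPL39L, RPS27L and RPS4Y1), and 77 are the other members. The ribosomal proteins FAU, RPL36AL and RACK1 have symbols outside the rule and were kept as a separate list.

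HEK293T cells derive from human embryonic kidney and express the large T antigen of SV40. The drug DZNep, or 3-deazaneplanocin A, resembles adenosine and blocks AHCY, the enzyme that removes S-adenosylhomocysteine, and so acts on many methylation reactions. The Control group was 4 libraries of HEK293T cells given vehicle, and the DZNep group was 4 libraries of HEK293T cells given 100 µM DZNep, each for 48 h and numbered as replicates 1 to 4. Both groups were of the same unmodified line, and the comparison asked how DZNep treatment altered transcript levels. The medium was DMEM in the sample labels and RPMI in the study's methods. The study calls the replicates biological, while the labels do not say whether they were separate cultures, so p-values measure the spread between these libraries.

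Library totals ranged from 25043058 to 44902779 counts. The HEK293T markers LIN28B, PAX2, NEFL, NEFM, VIM and GATA3 were found in every library, with PAX2 lowest at 207 to 385 normalized counts. HBB was at 0 in all libraries, and the highest normalized count was 40.5 for CD3E, 6.91 for ALB and 77.7 for PTPRC. PECAM1 reached 228, and COL1A1, a fibroblast marker, stood at 2248 to 4682. Control replicates 1 and 4 stood apart from Control replicates 2 and 3 in the genes described here, with higher values in 68 of the 77 members outside the paralogs. DZNep replicates 1 and 4 stood above DZNep replicates 2 and 3 in 77 of 77. Mitochondrially encoded transcripts took 7.76% and 13.7% of the counts in Control replicates 1 and 4 and 3.02% and 3.16% in replicates 2 and 3. In DZNep, they took 7.04% and 10.1% in replicates 1 and 4 and 4.25% and 4.44% in replicates 2 and 3. What these replicates share was not tested.

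A ribosome is built from a small subunit, which reads the mRNA, and a large subunit, which forms the peptide bonds. Most ribosomal proteins are needed in a single copy per ribosome, and their mRNAs are among the most abundant in growing cells. Many of these mRNAs begin with a C followed by a run of pyrimidines, called a 5′ terminal oligopyrimidine (TOP) tract, through which mTOR and LARP1 control their translation and stability. Some ribosomal protein genes also carry snoRNAs in their introns, and many have left processed pseudogenes across the genome.

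The TOP tract is the sequence feature that these genes are known for. The letters around the RefSeq start of transcription are shown for some members with large changes and for some paralogs and their counterparts. Among members with large falls that are not shown, RPL28 opens with 8 pyrimidines and RPL3 with 4, and RPL19 opens with a G. RPL39L, RPS20 and RPL37 had no start in the RefSeq table. Each stretch has 30 bases of GRCh38.p14, 10 before the start and 20 from the start, written 5′ to 3′ on the gene's strand. Capitals mark the unbroken run of C and T that opens the transcript where the first letter is a C. RPL26L1 has 2 starts in RefSeq, and the upstream start is shown.
RPL14 (chr3:40457329-40457358, plus strand): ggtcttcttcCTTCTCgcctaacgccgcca
RPL27A (chr11:8682782-8682811, plus strand): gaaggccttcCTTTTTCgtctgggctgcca
RPL12 (chr9:127451387-127451416, minus strand): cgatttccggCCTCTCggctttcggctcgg
RPL41 (chr12:56116623-56116652, plus strand): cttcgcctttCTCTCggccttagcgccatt
RPL22 (chr1:6199576-6199605, minus strand): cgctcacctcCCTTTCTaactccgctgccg
RPL22L1 (chr3:170870176-170870205, minus strand): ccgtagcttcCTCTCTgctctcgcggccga
RPS27 (chr1:153990752-153990781, plus strand): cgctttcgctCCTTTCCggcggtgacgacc
RPS27L (chr15:63157458-63157487, minus strand): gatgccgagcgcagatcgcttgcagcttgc
RPL26 (chr17:8383174-8383203, minus strand): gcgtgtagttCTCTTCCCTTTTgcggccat
RPL26L1 (chr5:172958719-172958748, plus strand): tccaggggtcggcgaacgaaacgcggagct
RPL7L1 (chr6:42879606-42879635, plus strand): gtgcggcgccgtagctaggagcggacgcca

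Of the members, 67 had a start in the RefSeq table. At 44 of these (65.7%), the start was a C followed by at least 4 more pyrimidines, against 4.07% of all 35116 starts in the table. The same start was present at 5 of 69 mitochondrial ribosomal protein genes (7.25%). The paralogs RPS27L, RPL26L1 and RPL7L1 had no such start, while RPL22L1 and RPS4Y1 had one. Within the 300 bases from 250 before to 50 after the start, CCGGAAG (a core bound by ETS factors, either strand) was present in 23 of the 67 (34.3%) and in 10.3% of all windows. The motif CACGTG (an E-box, bound by MYC with MAX) was present in 4 of the 67 (5.97%) and in 7.26% of all windows. These are matches of letters and were not measured as binding.

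Ribosomal protein transcripts took a smaller share of the library in DZNep than in Control at every replicate number. The 84 members held 12.3%, 7.63%, 9.05% and 12.7% of all counts in Control replicates 1 to 4, which gave 10.4% ± 2.47 (SD, n = 4). They held 7.37%, 5.44%, 6.17% and 9.30% in DZNep replicates 1 to 4, which gave 7.07% ± 1.68 (SD, n = 4). The groups overlapped, with DZNep replicate 4 above Control replicates 2 and 3, while each DZNep library was below the Control library of its number. The DZNep mean minus the Control mean was −3.35 percentage points, a difference without a test because it is a sum over the chosen genes. Outside the mitochondrially encoded transcripts, the share was 11.3% ± 3.23 in Control and 7.60% ± 2.05 in DZNep (SD, n = 4 each). In these bulk samples, fewer cells of a type and less RNA per cell cannot be told apart, and all values are relative to the total RNA of a library.

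**Figure D1:**
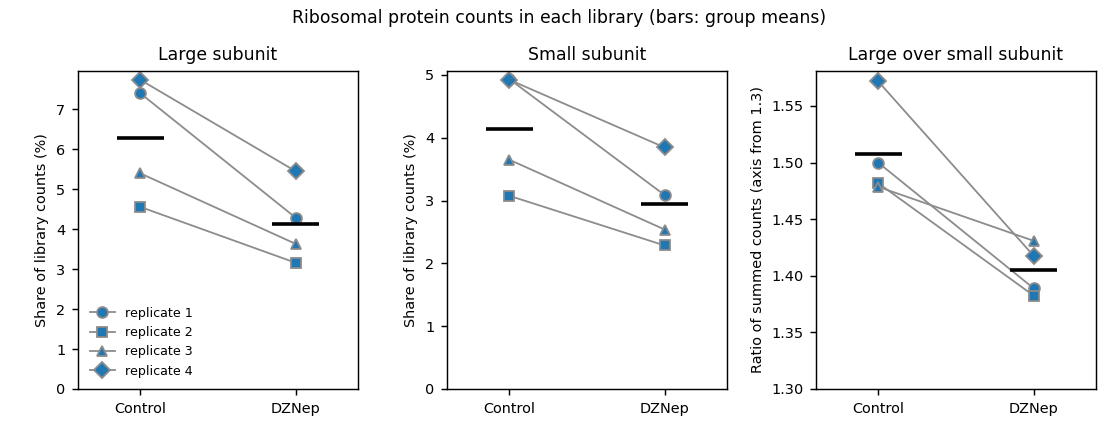
The left and middle panels plot the share of library counts (%) of the large and small subunit genes in each library, and the right panel plots the ratio of the large to the small subunit sum on an axis that starts at 1.3. Symbols are the 4 replicate numbers, gray lines join libraries of the same number, and black bars are group means. Each line falls from Control to DZNep, and the ratio lies between 1.48 and 1.57 in Control and between 1.38 and 1.43 in DZNep.

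Both subunits had lower mean shares in DZNep. Large subunit genes held 6.27% ± 1.54 of the counts in Control and 4.13% ± 0.994 in DZNep (SD, n = 4 each). Small subunit genes held 4.15% ± 0.934 in Control and 2.94% ± 0.691 in DZNep. The ratio of the large to the small subunit sum, which needs no scaling between libraries, was 1.5, 1.48, 1.48 and 1.57 in Control replicates 1 to 4 and 1.39, 1.38, 1.43 and 1.42 in DZNep replicates 1 to 4. All 4 DZNep ratios were below all 4 Control ratios, with means of 1.51 ± 0.0435 and 1.41 ± 0.0231 (SD, n = 4 each). This ratio weighs each gene by its counts, and its difference was not tested.

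Gene by gene, 25 of the 84 members were lower and 2 were higher in DZNep at an adjusted p under 0.05 in edgeR's quasi-likelihood test, with Benjamini-Hochberg adjustment over all 19171 genes tested. Of all genes tested, 21.8% were lower and 19.1% were higher by this rule, so 25 of 84 lower was not far above the share of all genes, while 2 of 84 higher was well below it. With an absolute log2 fold change over 1 as well, 11 members were lower and 0 were higher, against 13.5% and 10.6% of all genes. At an unadjusted p under 0.05, 45 members were lower and 2 were higher. The share of all genes at this threshold was not counted, and it is at least the 21.8% and 19.1% of the adjusted rule. With the replicate number as a block, edgeR called 68 members lower and 2 higher at an adjusted p under 0.05, while it called 30.2% of all genes lower and 28.8% higher. Whether the replicate numbers pair the libraries was not tested, so every result with the block is an alternative to the unpaired fit. The 25 members that were lower without the block were among the 68, a number well above the share of all genes. The number past both thresholds with the block was 10 lower and 0 higher, against 14.3% and 11.7% of all genes.

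The log2 fold changes of nearly all members were below zero. The median over the members was −0.60, with 81 of 84 below zero and a range from −2.09 to 0.63, while the median over all genes tested was −0.03. Replicate by replicate, the median log2 ratio of DZNep to Control over the members was −0.76, −0.54, −0.63 and −0.51 for numbers 1 to 4. The number of members with a lower value in DZNep was 82, 77, 79 and 75 of 84, against 49.6%, 48.4%, 48.8% and 48.7% of all genes. In 70 members the DZNep value was lower at all 4 numbers, and in RPL41 and RPL7L1 it was higher at all 4. The genes are not independent of each other, since their values rose and fell together between replicates. Every DZNep library was below every Control library in 12 members and above in 2, against 19.4% and 19.5% of all genes tested.

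**Figure D2:**
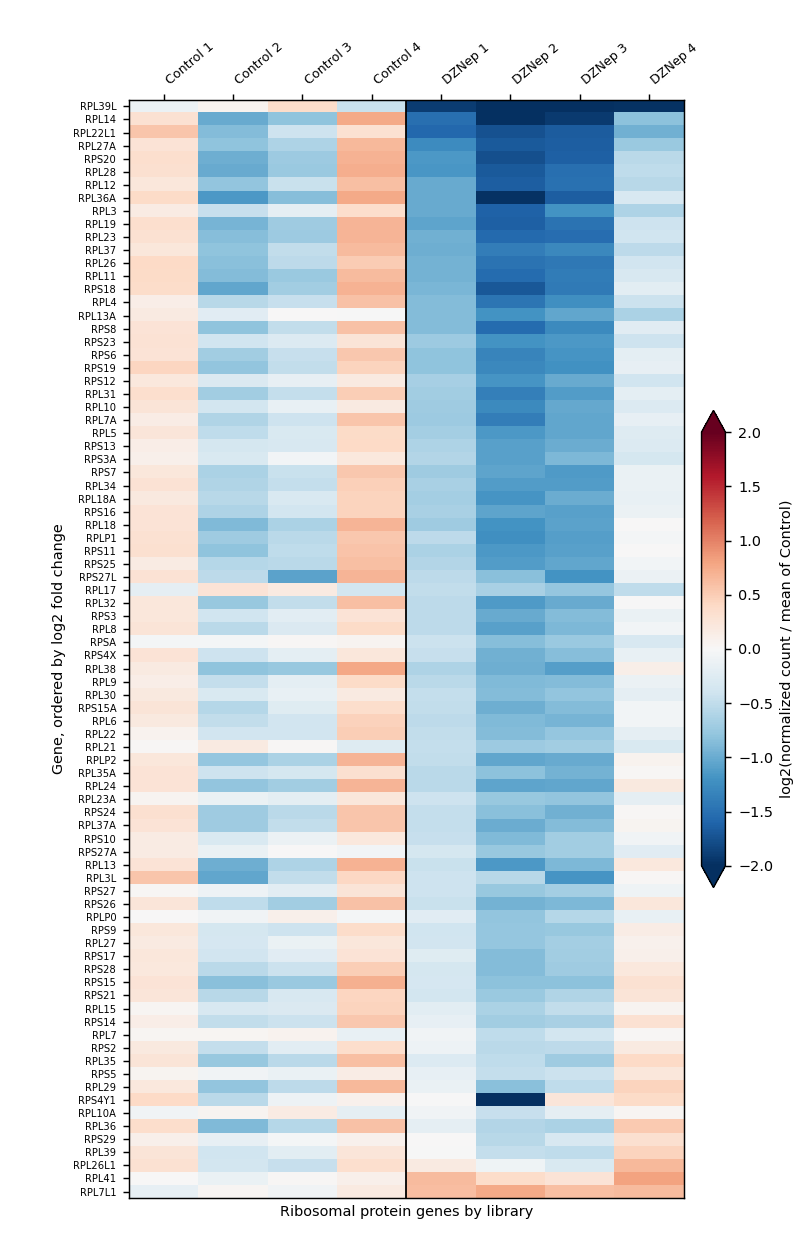
Rows are the 84 members in the order of their log2 fold change and columns are the 8 libraries. Color is the log2 ratio of the normalized count to the gene's mean in Control, on a scale held between −2 and 2, with blue for lower and red for higher values. DZNep replicates 2 and 3 are the bluest columns, Control replicates 2 and 3 are paler blue in most rows, and RPL41 and RPL7L1 at the bottom are red in all 4 DZNep libraries.

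The spread between replicates was wide and shared by most members. Over all members, the median coefficient of variation was 32.9% in Control and 32.2% in DZNep. RPSA, a component of the small subunit also known as the laminin receptor, was the steadiest in Control at 3.31%. RPLP0, RPL7 and RPL41 followed, at 5.12%, 6.42% and 6.81%. RPL36A (59.5%), RPL14 (57.0%), RPL28 (55.1%) and RPS18 (53.9%) varied the most. Across the 77 members outside the paralogs, the coefficients of variation in Control and DZNep had a Spearman correlation of 0.91, a description of genes that share the same libraries. Replicate 4 was highest in 63 of these 77 in Control and in 76 in DZNep, and replicate 2 was lowest in 67 and 65.

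RPL39L, the paralog of RPL39 that is best known from the testis, had the lowest log2 fold change of all members. RPL39L (ENSG00000163923, chr3:187120948-187180908, GRCh38) had 700, 800, 985 and 562 normalized counts in Control replicates 1 to 4 and 205, 143, 188 and 193 in DZNep replicates 1 to 4. No DZNep library came near the lowest Control library. RPL39L fell by 2.09 ± 0.21 (SE) on the log2 scale (edgeR adjusted p = 5.76e-05), and DZNep retained 24.0% of the Control mean. Unlike most members, RPL39L was not highest in replicates 1 and 4 in Control.

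RPL14, a large subunit protein, had the largest fall among the members outside the paralogs. RPL14 (ENSG00000188846, chr3:40457292-40468587) had 102484, 41323, 47470 and 140706 normalized counts in Control and 29157, 19403, 22055 and 47096 in DZNep. The groups overlapped, because DZNep replicate 4 was above Control replicate 2, while every DZNep library was below the Control library of its number. RPL14 fell by 1.53 ± 0.43 (SE) on the log2 scale (edgeR adjusted p = 0.0165). The same test gave an adjusted p of 7.06e-07 with the replicate block, and of up to 0.0527 when a library was left out.

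RPL22L1, the paralog of RPL22, was past both thresholds as well. RPL22L1 (ENSG00000163584, chr3:170864875-170870208) had 1683, 624, 862 and 1406 normalized counts in Control and 385, 341, 360 and 588 in DZNep. Every DZNep library was below every Control library. RPL22L1 fell by 1.48 ± 0.31 (SE) on the log2 scale (edgeR adjusted p = 0.00389).

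RPL3, whose product lines the peptidyl transferase center, was the most abundant of the members past both thresholds. RPL3 (ENSG00000100316, chr22:39312882-39320389) had 164188, 105931, 128470 and 186262 normalized counts in Control and 72464, 47717, 63814 and 94885 in DZNep. The highest DZNep library was below the lowest Control library. RPL3 fell by 1.10 ± 0.26 (SE) on the log2 scale (edgeR adjusted p = 0.00767), to 47.7% of the Control mean. Per kilobase of the canonical transcript, RPL3 ranked 6 among the members in Control and 19 in DZNep.

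The other members past both thresholds were RPL27A, RPS20, RPL28, RPL12, RPL19, RPL37 and RPL26, of which RPS20 was the only small subunit gene. RPL27A fell by 1.31 ± 0.35 (SE) on the log2 scale (edgeR adjusted p = 0.0131), from 53431 ± 25216 to 21994 ± 7068 normalized counts (SD, n = 4 each). RPS20, a protein of the head of the small subunit, fell by 1.22 ± 0.40 (edgeR adjusted p = 0.0332). RPL28, which has no bacterial counterpart, fell by 1.17 ± 0.40 (edgeR adjusted p = 0.0406). RPL12, at the base of the ribosomal stalk, fell by 1.14 ± 0.34 (edgeR adjusted p = 0.0228). RPL19, RPL37 and RPL26 fell by 1.09, 1.03 and 1.02 on the log2 scale (edgeR adjusted p = 0.0492, 0.0274 and 0.0398). In each of these 7 genes the groups overlapped and all 4 DZNep libraries were below the Control libraries of the same number. When single libraries were left out, RPL27A was the only one of the 7 that kept an adjusted p under 0.05 each time, with a highest value of 0.0439.

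**Figure D3:**
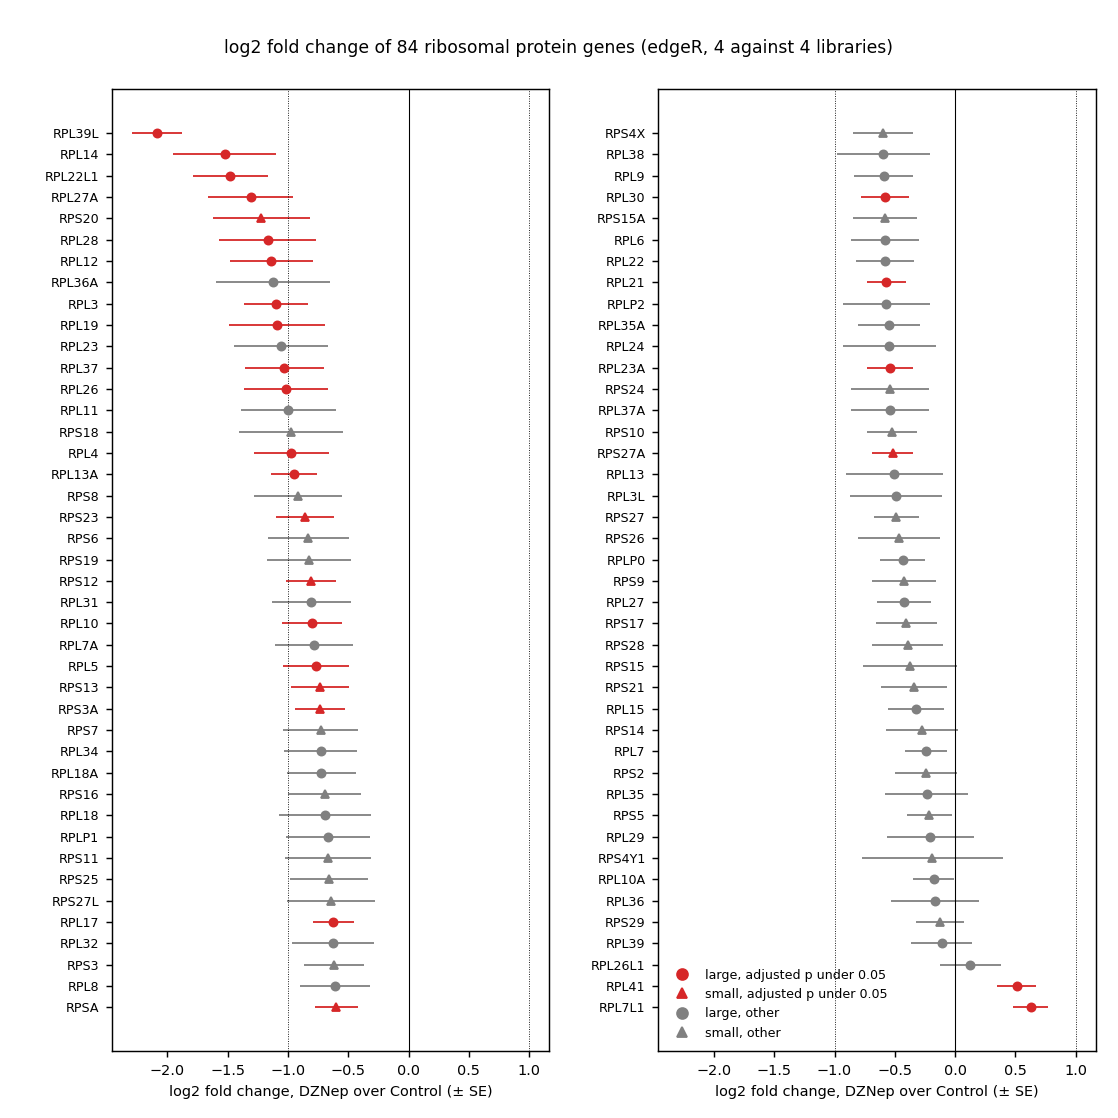
Points are the log2 fold changes of DZNep over Control for the 84 members with bars of 1 SE, in edgeR with 4 libraries a group, circles for the large subunit and triangles for the small subunit. Red marks an adjusted p under 0.05, and dotted lines mark an absolute log2 fold change of 1. The members run from −2.09 (RPL39L) to 0.63 (RPL7L1), 81 lie left of zero, and 27 are red.

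Another 14 members were lower at an adjusted p under 0.05 with a smaller fold change. RPL13A, which is also known as a repressor of the translation of inflammatory mRNAs once released from the ribosome, had 150486, 113612, 133770 and 132058 normalized counts in Control and 72450, 57690, 64240 and 85058 in DZNep. All DZNep libraries were below all Control libraries, and RPL13A fell by 0.95 ± 0.19 (SE) on the log2 scale (edgeR adjusted p = 0.00302). RPS12 fell by 0.81 ± 0.21 (edgeR adjusted p = 0.0114) and also did not overlap between the groups. RPS23, a protein of the decoding center, fell by 0.86 ± 0.24 (edgeR adjusted p = 0.0164). RPSA had 70607, 70282, 73218 and 75370 normalized counts in Control and 53828, 40057, 43093 and 57964 in DZNep, and fell by 0.60 ± 0.18 (edgeR adjusted p = 0.0211). The remaining 10 were RPL4, RPL10, RPL5, RPS13, RPS3A, RPL17, RPL30, RPL21, RPL23A and RPS27A, with log2 fold changes between −0.97 (RPL4) and −0.52 (RPS27A). RPS27A encodes a ribosomal protein fused to ubiquitin. The genes past the threshold with every library left out in turn were 7, namely RPL39L, RPL22L1, RPL27A, RPL3, RPL13A, RPS12 and RPL7L1.

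Only RPL7L1 and RPL41 rose. RPL7L1, a nucleolar relative of RPL7 that takes part in the assembly of the large subunit, had 15152, 17524, 16274 and 19298 normalized counts in Control and 26187, 28940, 25749 and 26474 in DZNep. All DZNep libraries were above all Control libraries, and the spread within each group was small. RPL7L1 (ENSG00000146223, chr6:42879616-42889925) rose by 0.63 ± 0.15 (SE) on the log2 scale (edgeR adjusted p = 0.00697), to 157% of the Control mean. RPL41, which encodes the smallest ribosomal protein, had 15622, 14166, 15835 and 16728 normalized counts in Control and 24115, 20137, 18833 and 27363 in DZNep. Here too the groups did not overlap. RPL41 (ENSG00000229117, chr12:56116590-56117967) rose by 0.51 ± 0.17 (SE) on the log2 scale (edgeR adjusted p = 0.0317), and the adjusted p reached 0.0806 when a library was left out. The 3 annotated pseudogenes of RPL41 held 27974 counts over the 8 libraries, against 156969 for RPL41. Only unique reads were counted, so reads that fit several such near copies may be missing, and the level of RPL41 is uncertain.

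Several abundant members had fold changes near zero. RPS2, which lies at the entry of the mRNA channel, had the most normalized counts of any member, at 214848 ± 54816 in Control and 185394 ± 45541 in DZNep (SD, n = 4 each). RPS2 had a log2 fold change of −0.24 ± 0.26 (SE, edgeR adjusted p = 0.488), and it ranked 1 per kilobase in both groups. RPS2 also had the pseudogenes with the most counts, 226398 over the 8 libraries against 1588908 for RPS2 itself. RPL39, in the exit tunnel of the large subunit, had a log2 fold change of −0.11 ± 0.25 (SE, edgeR adjusted p = 0.752). RPS29, RPL36, RPL10A, RPL29 and RPL7 had log2 fold changes between −0.24 and −0.13, none with an adjusted p under 0.05 with or without the block. RPL8 and RPS4X, which with RPS2 had the most normalized counts summed over the 8 libraries, had log2 fold changes of −0.61 and −0.60 (edgeR adjusted p = 0.120 and 0.0777). Both were lower with the replicate block (edgeR adjusted p = 0.00034 and 0.000427).

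By role, the 3 stalk proteins RPLP0, RPLP1 and RPLP2, which recruit elongation factors, had log2 fold changes of −0.44, −0.67 and −0.57. None of the 3 had an adjusted p under 0.05 without the block, and all 3 did with it. RPL5 and RPL11 bind 5S rRNA before they join the large subunit and, when free, bind MDM2. RPL5 fell by 0.77 ± 0.27 (SE) on the log2 scale (edgeR adjusted p = 0.0447), while RPL11 had a log2 fold change of −0.997 ± 0.39 (edgeR adjusted p = 0.0659). With the block, RPL5 and RPL11 were both lower (edgeR adjusted p = 4.67e-05 and 2.56e-05). RPS6, the substrate of S6 kinase, had a log2 fold change of −0.83 ± 0.33 (edgeR adjusted p = 0.0714) and was lower with the block (3.86e-05). RPL36A had a log2 fold change of −1.13 ± 0.47 (edgeR adjusted p = 0.0822), and the block gave 5.3e-06.

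By subunit, 18 of 51 large subunit genes were lower and 2 were higher at an adjusted p under 0.05, with a median log2 fold change of −0.61. Of 33 small subunit genes, 7 were lower and 0 were higher, with a median of −0.60, and this count of lower genes was near the 21.8% of all genes tested. With the block, 41 large and 27 small subunit genes were lower, against 30.2% of all genes tested. Lower past both thresholds were 10 large and 1 small subunit genes, against 13.5% of all genes tested. Outside the paralogs, these were 8 of 46 large and 1 of 31 small subunit genes. The medians were alike while the largest falls lay mostly in large subunit genes. The number of members past both thresholds ran from 3 to 24 of 84 when a library was left out. Over all genes, those lower past both ran from 2322 of 19651 (without DZNep replicate 1) to 2993 of 19820 (without Control replicate 2). The number of members thus moved more than that of all genes. Whether the subunits differed was not tested.

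The median fold change was lower in members that carry snoRNAs than in the others, a difference that was not tested. Of 28 snoRNA hosts, which hold 60 annotated snoRNA genes, 17 were lower and 0 were higher, against 21.8% and 19.1% of all genes tested, with a median log2 fold change of −0.73. Of the 56 other members, 8 were lower and 2 were higher, with a median of −0.55. With the block, 26 of the 28 hosts and 42 of the 56 others were lower, against 30.2% of all genes tested. The contrast in calls was thus smaller with the block. In 31 members an exon overlaps an exon of another gene on the same strand, often a snoRNA or a readthrough transcript such as RPL36A-HNRNPH2, and 14 of them were lower, with a median of −0.67. Of the 53 without such an overlap, 11 were lower, near the 21.8% of all genes tested, with a median of −0.58. The strandedness and annotation release of the counting are not given in the sources used here, so counts of overlapping genes are uncertain.

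Members with and without the TOP start shown above had medians close to each other. The 44 members with a C and at least 4 more pyrimidines at the start had a median log2 fold change of −0.64, with 13 lower and 1 higher (RPL41). The 23 members with another start had a median of −0.58, with 6 lower and 1 higher (RPL7L1). Of all genes tested, 21.8% were lower and 19.1% were higher. Each member was classed by a single RefSeq start and its exact first letters, so a start annotated a few bases off would change its class. The 23 may thus include mRNAs with a TOP tract, and whether the tract relates to the fall was not tested. Across the 77 members outside the paralogs, the Spearman correlation of the log2 fold change was −0.01 with the Control level per kilobase, −0.01 with the number of annotated pseudogenes and −0.31 with the length of the canonical transcript. RPL14, RPL27A, RPL28 and RPL37, which are past both thresholds, have canonical transcripts of 7136, 4535, 4209 and 7573 bases, so their levels per kilobase depend on that choice of transcript. These correlations are descriptions over genes of the same libraries. The members have 1600 annotated pseudogenes in all, with a median of 12 and up to 133 for RPL21. For every 100 member counts, 0.784 to 1.41 pseudogene counts were found in Control and 1.29 to 2.42 in DZNep. As a share of all counts, the pseudogenes held 0.111% ± 0.0114 in Control and 0.123% ± 0.0075 in DZNep (SD, n = 4 each), while the share of the members fell. The pseudogenes of RPS2 held by far the most of these counts, 226398 over the 8 libraries.

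The paralogs are far less abundant than most of their counterparts and moved in different directions. The comparison of a paralog with its counterpart was made within each library, as counts of the paralog for every 100 counts of the counterpart, and 8 pairs were tested with a two-sided exact permutation test on log2 ratios. With 4 libraries against 4, the smallest p is 0.0286, which is 0.0457 after Benjamini-Hochberg adjustment over the 8 pairs, and 5 pairs reached it. RPL39L stood at 1.54 to 3.67 per 100 counts of RPL39 in Control and at 0.461 to 0.869 in DZNep, a difference in log2 ratio of −1.93. RPL22L1 stood at 3.06 to 6.0 per 100 counts of RPL22 in Control and at 2.05 to 2.51 in DZNep, a difference of −0.85. These 2 ratios were lower in all 4 DZNep libraries than in any Control library.

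The other 3 ratios were higher in DZNep. RPL7L1 stood at 35.5 to 51.1 per 100 counts of RPL7 in Control and at 62.2 to 98.7 in DZNep, a difference in log2 ratio of 0.89. RPL26L1 stood at 11.3 to 17.7 per 100 counts of RPL26 in Control and at 26.0 to 33.4 in DZNep, a difference of 1.10. In this pair RPL26 fell, and RPL26L1 itself had a log2 fold change of 0.13 ± 0.25 (SE, edgeR adjusted p = 0.722). RPL36AL, outside the symbol rule, stood at 15.6 to 29.2 per 100 counts of RPL36A in Control and at 47.2 to 70.9 in DZNep, a difference of 1.35. RPL36AL itself had a log2 fold change of 0.21 ± 0.38 (SE, edgeR adjusted p = 0.697). RPL36A and RPL36AL are near copies, and reads that fit both may be missing from the unique reads counted.

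The remaining 3 pairs did not pass the test. RPL3L, a muscle paralog of RPL3, stood at 0.0413 to 0.0807 per 100 counts of RPL3 in Control and at 0.0623 to 0.128 in DZNep (exact permutation p = 0.0857, adjusted p = 0.114). RPS27L, known as a target of p53, had a log2 fold change of −0.64 ± 0.36 (SE, edgeR adjusted p = 0.186). The log2 ratio of RPS27L to RPS27 differed by −0.04 (exact permutation p = 0.886) and that of RPS4Y1 to RPS4X by −0.07 (exact permutation p = 1). RPS4Y1 had 4 to 50 counts in a library and is a near copy of RPS4X, so its reads are uncertain. RPL10L had a mean of 6.38 counts in a library and its ratio to RPL10 was not tested.

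**Figure D4:**
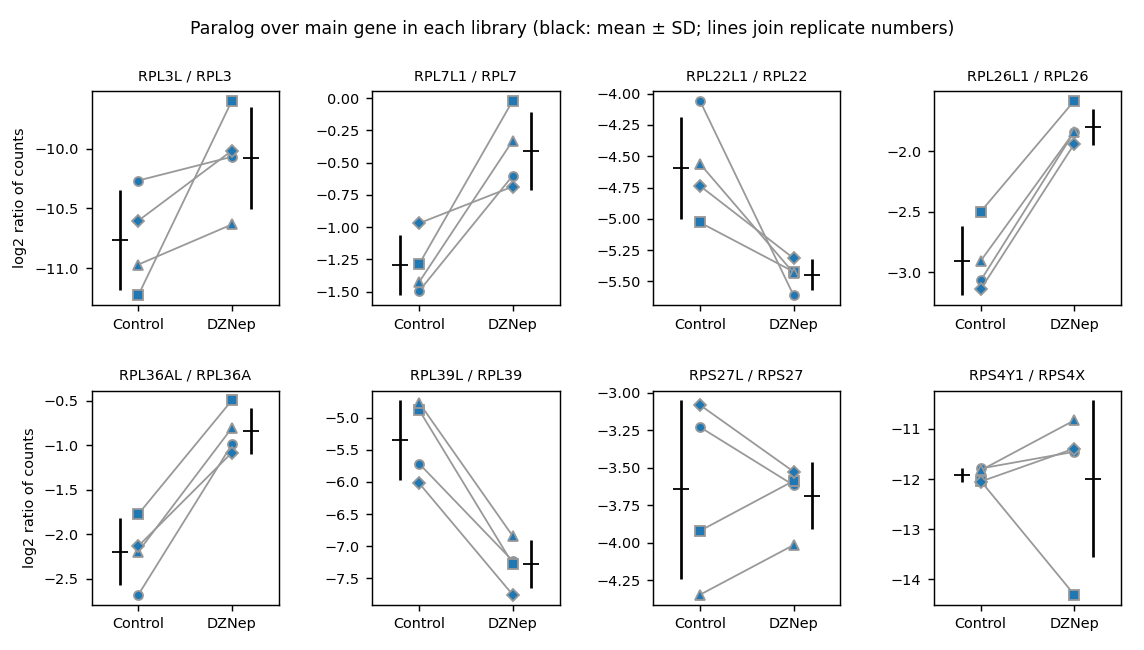
Each panel plots the log2 ratio of the counts of a paralog to those of its counterpart in each library, for 8 pairs and with an axis of its own. Circles, squares, triangles and diamonds are replicates 1 to 4, gray lines join the same number, and black marks are means ± SD of 4 libraries. The ratios of RPL39L to RPL39 and of RPL22L1 to RPL22 are lower in every DZNep library, those of RPL7L1, RPL26L1 and RPL36AL to their counterparts are higher in every DZNep library, and the other 3 pairs overlap.

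When the libraries were scaled to the summed counts of the members, which was chosen after seeing the data, the question became which members moved against the family as a whole. On this scale the median log2 fold change was 0.03 over the members and 0.60 over all genes tested. Higher than the family at an adjusted p under 0.05 in edgeR were 5 members, RPL7L1 (log2 fold change of 1.27), RPL41 (1.11), RPL26L1 (0.77), RPL39 (0.49) and RPS2 (0.40). Lower than the family were 5 members, RPL39L (−1.55), RPL14 (−0.82), RPL22L1 (−0.78), RPL27A (−0.61) and RPL3 (−0.47). By the same scaling, 26.1% of all genes tested were higher and 5.86% were lower. The 5 of 84 lower were thus near the share of all genes, and the 5 of 84 higher were below it. With the replicate block, 16 members were higher and 15 were lower, against 58.4% and 11.8% of all genes. RPL7L1 and RPL41 were higher, and RPL39L, RPL14, RPL22L1, RPL27A and RPL3 lower, on both scales. RPL26L1, RPL39 and RPS2 were called only against the family. Both scales rest on the same counts. Because the family fell, a member that rose on the first scale also stood above the family, so the second scale gives no separate support.

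Other TOP mRNAs encode elongation factors, subunits of EIF3, PABPC1 and similar proteins. Of 17 such genes, 12 were lower and 0 were higher at an adjusted p under 0.05, against 21.8% and 19.1% of all genes tested. Their median log2 fold change was −0.66. With the block 15 were lower, against 30.2% of all genes tested. EEF1D, a subunit of the exchange factor of EEF1A1, fell by 1.25 ± 0.16 (SE) on the log2 scale (edgeR adjusted p = 0.000238). NAP1L1, a histone chaperone, fell by 1.15 ± 0.20 (edgeR adjusted p = 0.00144), and TPT1 fell by 1.03 ± 0.26 (edgeR adjusted p = 0.0098). EEF2, the translocation factor, had a log2 fold change of 0.04 ± 0.18 (edgeR adjusted p = 0.876). Of the 3 ribosomal proteins outside the symbol rule, 0 were called without the block, at a median of −0.46, and RACK1 had a log2 fold change of −0.59 ± 0.27 (edgeR adjusted p = 0.112). With the block, 2 of the 3 (FAU and RACK1) were lower and 1 (RPL36AL) was higher.

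Mitochondrial ribosomal proteins, which form a separate ribosome in mitochondria, did not share the direction of the cytosolic members. Among 78 genes of this family, 14 were higher and 9 were lower at an adjusted p under 0.05, near or below the 19.1% and 21.8% of all genes tested, with a median log2 fold change of 0.07. They held 0.567% ± 0.0648 of the counts in Control and 0.614% ± 0.0817 in DZNep (SD, n = 4 each). The difference between the families was not tested.

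Genes that make, carry, modify and regulate ribosomes had calls in both directions, most of their counts near or below the 19.1% of all genes that were higher and the 21.8% that were lower. Of 53 small subunit assembly factors, 6 were higher and 1 was lower, with a median log2 fold change of 0.04. RIOK2, an ATPase of late small subunit maturation, rose by 0.91 ± 0.14 (SE) on the log2 scale (edgeR adjusted p = 0.000518). Of 57 large subunit assembly factors tested, 6 were higher and 5 were lower, with a median of −0.04. NOP53 fell by 1.27 ± 0.29 (edgeR adjusted p = 0.00611), and LSG1, a GTPase that releases the export adaptor NMD3, rose by 0.81 ± 0.16 (edgeR adjusted p = 0.00253). Of 18 genes for the core proteins and assembly of snoRNPs, 2 were higher and 3 were lower, among them RUVBL1, which fell by 1.04 ± 0.15 (edgeR adjusted p = 0.000451). Of 23 genes of RNA polymerase I and its factors, 1 was higher and 1 was lower. These were POLR2L, which rose by 1.14 ± 0.22 (edgeR adjusted p = 0.00219), and TAF1D, itself a snoRNA host, which fell by 2.10 ± 0.24 (edgeR adjusted p = 0.000122).

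Chaperones and importers of ribosomal proteins had 1 higher and 4 lower of 16 genes, and GRWD1, the chaperone of RPL3, rose by 1.00 ± 0.16 (SE) on the log2 scale (edgeR adjusted p = 0.000744). Its client RPL3 was among the members that fell. Enzymes that modify ribosomal proteins had 1 higher and 1 lower of 16 genes. PRMT3, which methylates RPS2 on arginine, fell by 1.11 ± 0.18 (edgeR adjusted p = 0.000931), and MKRN1, a ubiquitin ligase, rose by 1.01 ± 0.14 (edgeR adjusted p = 0.00031).

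Of 32 genes of the mTOR pathway, the LARP proteins and S6 kinases, 4 were higher and 5 were lower, with a median log2 fold change of 0.01. DDIT4, an inhibitor of mTOR signaling, rose by 1.06 ± 0.19 (SE) on the log2 scale (edgeR adjusted p = 0.00134). RPS6KA2 fell by 2.79 ± 0.24 (edgeR adjusted p = 2.64e-05) and LARP1B, a relative of LARP1, fell by 1.26 ± 0.20 (edgeR adjusted p = 0.000797). Of 17 genes of the MYC family and other regulators of ribosomal protein genes, 2 were higher and 2 were lower, with a median of 0.24, and MYCN was low at 38.8 ± 8.93 normalized counts in Control (SD, n = 4). Of 31 initiation factors, 3 were higher and 4 were lower, with a median of 0.01. EIF2B2, a subunit of the exchange factor of eIF2, rose by 1.13 ± 0.16 (edgeR adjusted p = 0.000358), and EIF3K fell by 0.92 ± 0.17 (edgeR adjusted p = 0.00181). Of 14 elongation, termination and recycling factors, 2 were higher and 1 was lower, namely EEF2K, the kinase of EEF2, which fell by 1.21 ± 0.21 (edgeR adjusted p = 0.00129).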

How the data were processed

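The study's methods state that RNA was sequenced as paired 150 bp reads, trimmed with Trimmomatic 0.36, mapped to GRCh38 with STAR 2.5.2b, and that unique exonic reads were counted with featureCounts (Subread 1.5.2). The annotation release and strandedness are not given in the sources used here. The authors deposited these raw counts for 57500 genes, and a normalized signal for 19118 genes which equals each library's counts divided by its own size factor. Library totals of 25043058 to 44902779 set the precision, which covers counting error only. Symbols and coordinates are from GENCODE 44 (56410 identifiers matched) and starts from RefSeq.

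Counts were tested with edgeR 4.0.16 (quasi-likelihood, TMM, filterByExpr, 19171 genes) in R 4.3.3, with an adjusted p under 0.05, alone or with an absolute log2 fold change over 1. The SE is the absolute log2 fold change over the square root of F. The steps were tested on simulated data. Alternatives were DESeq2 1.42.0, limma 3.58.1, other factors and filters, the replicate block and leaving out each library. Deviations from the group mean in same-numbered libraries had r = 0.14, 0.48, 0.42 and 0.66 for replicates 1 to 4 over 18824 genes. Over the members, r was −0.01, 0.31, 0.62 and 0.82. Libraries of unlike number were not compared, so whether the numbers pair the libraries was not tested. The block was fitted as an alternative, while the reported fit and the ratio tests are unpaired, as was the study's test. Paralog ratios were log2((count + 0.5)/(count + 0.5)). No 2 libraries of the same group were alike within sampling noise.

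Named members are those past both thresholds, the 8 highest and 8 lowest fold changes at an average log2 CPM of at least 1, paralog pairs, the 3 most abundant, and up to 3 called genes a list and direction. Others were named after their values were seen. The members and the 12 lists were chosen with earlier results of these data known. The result of 1 gene is not reported here.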

Additional observations from a re-analysis of the deposited data

Results flagged for a closer look

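Of 80 groups of 4 libraries examined for a sample far from the others, chance flags about 1 in 20, and 1 stood out. RPL7, the counterpart of RPL7L1 in the large subunit, had 37786 normalized counts in Control replicate 4, while the other 3 Control libraries had 42716 to 43719. The gap to the nearest library was 0.831 of the group's range, just above Dixon's critical value for 4 samples. Control replicate 4 was the highest library of most other members.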

How the results depend on the processing

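The median of the members was below zero and few were called higher under each alternative other than scaling to the family (0.03), while the number of members called lower moved with the test. At an adjusted p under 0.05, the 25 members called lower became 68 with the replicate block and 16 with upper-quartile factors. They were 37 with DESeq2, 22 with DESeq2's size factors in edgeR, 21 with limma, 26 with library sizes alone, 28 with at least 1 read in any library and 19 with at least 10 reads in every library. Leaving out a library gave 6 (DZNep replicate 3) to 50 (DZNep replicate 4) lower, with 7 without DZNep replicate 2, 11 without DZNep replicate 1, 12 without Control replicate 1, 15 without Control replicate 4 and 44 without Control replicate 2. Over all genes, the share called lower also rose with the block, from 21.8% to 30.2%. For the other settings this share is not given here, so their counts do not show whether the members moved more than all genes. Members called higher were 1 with at least 1 read in any library and 1 to 2 when a library was left out. Members lower past both thresholds were 7 with limma and 3 to 24 when a library was left out. Over all genes, 2354 were lower past both with limma and 2322 to 2993 when a library was left out. Without single libraries, the median log2 fold change ran from −0.83 to −0.45 and the difference in share from −4.28 to −2.60 points. Relative to the family, the block gave 16 higher and 15 lower, and leaving out a library gave 2 to 5 higher and 1 to 7 lower. For the 30 named members, leaving out each library in turn lost a call 40 times, gained it 8 times, changed the sign 8 times and changed neither 184 times. The block gained a call for 6 of the 30 and lost none. The cause of these shifts was not tested.

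Leaving out a library moved the sign of 6 log2 fold changes among the named members, and of RPL35 (−0.50 to 0.0307) among the others. RPL26L1 ran from −0.0761 (without DZNep replicate 4) to 0.259 and was −0.00382 without Control replicate 3. RPL29 ran from −0.48 to 0.0907 and RPL36 from −0.47 to 0.0912, both above zero without Control replicate 4. RPL39 ran from −0.33 to 0.0146, above zero without DZNep replicates 3 and 2 (0.0055). RPS4Y1 ran from −0.41 to 0.20 and RPS29 from −0.29 to 0.0062, both above zero without DZNep replicate 2. The log2 ratio difference of RPS27L to RPS27 ran from −0.28 to 0.15 (0.0970 and 0.146 without Control replicates 1 and 4 and 0.0682 without DZNep replicate 3). That of RPS4Y1 to RPS4X ran from −0.46 to 0.70 (without DZNep replicate 2) and was 0.102 with a pseudocount of 5. With 3 libraries against 4 the smallest permutation p is 0.0571 and with 4 pairs it is 0.125, which says nothing of the stability of the ratios. Over all genes, 2041 higher and 2589 lower past both thresholds became 1141 and 1950 with at least 10 reads in every library.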
